A study of Mus musculus with 18 samples.

Results

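Gene expression was compared between CD103+CD11b- and CD103+CD11b+ cells of the untreated mouse colon, on 3 arrays a side of the 18 arrays of the study. Per the labels, the cells came from the colon lamina propria of BALB/c mice, 8 weeks old. The tissue was digested with collagenase, and MHC+CD11chigh cells were sorted by the surface proteins CD103 and CD11b. Both of these subsets and CD103-CD11b+ cells were taken in each of 3 experiments without dextran sulfate sodium (DSS) and in 3 others with 2% DSS, a sulfated polysaccharide that damages the colon lining. The arrays compared were those of the first pair of subsets in experiments 1, 2 and 3, chosen by their titles, and every probe set annotated with a single gene symbol was eligible. Of 34760 probe sets 21640 qualified, and after a filter on low values 14003 of 19937 genes were tested. The labels do not say whether an experiment was 1 mouse or a pool, or whether experiments used separate mice. A p-value here therefore reflects how far samples of a group spread, estimated over all 18 arrays, and that spread may be technical. Values are log2 expression, and a difference is CD103+CD11b- minus CD103+CD11b+, so that a positive value is higher in the cells without CD11b. The small number of arrays limits the precision.

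Dendritic cells sample antigen, carry it through lymph to the draining lymph node and present it to T cells. In the gut wall, cells with CD103 and no CD11b belong mainly to the conventional type 1 lineage (cDC1), which depends on the transcription factors IRF8 and BATF3, takes up dying cells and presents their antigens to CD8 T cells. Cells with both proteins are mostly of the conventional type 2 lineage (cDC2), which depends on IRF4 and NOTCH2 signals, carries SIRPα and is known in the intestine for driving T helper responses. The third subset, with CD11b and no CD103, is a mixture in which macrophage-like cells are common.

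The genes of the sort markers were read first, as a check of the labels and not as a result, since the sort made these groups. Itgam, which encodes CD11b, gave 5.70, 5.02 and 4.70 in CD103+CD11b- cells and 7.22, 7.38 and 7.32 in CD103+CD11b+ cells, a difference of -2.17 ± 0.20 (limma standard error). Itgae, which encodes CD103 and should be present in both groups, gave 9.38, 9.27 and 9.45 in CD103+CD11b- cells and 8.89, 8.95 and 8.68 in CD103+CD11b+ cells. It was 0.53 ± 0.13 higher in the cells without CD11b (adjusted p = 0.017), and its groups did not overlap. That call was lost without experiment 3 (0.40, adjusted p = 0.19), without experiment 1 (0.55, adjusted p = 0.096), and without array 1 or 3 of the CD103+CD11b- cells or array 3 of the CD103+CD11b+ cells (0.45 to 0.52, adjusted p from 0.058 to 0.080). With the experiment as a block its adjusted p was 0.072. Itgax, the CD11c gene, gave 8.44, 8.51 and 8.52 in CD103+CD11b- cells and 8.87, 9.05 and 8.90 in CD103+CD11b+ cells, and its difference of -0.45 ± 0.16 did not pass (adjusted p = 0.12). The third subset had means of 6.35 for Itgae, 7.93 for Itgam and 9.22 for Itgax.

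Some arrays stood apart in transcripts of other tissue. The 15 genes of widest spread within either group of arrays were genes of the exocrine pancreas, such as digestive enzymes, with 2210010C04Rik left unassigned. It has no gene name in the files. Its values followed theirs, at 3.31, 9.76 and 8.67 in CD103+CD11b- cells and 4.04, 10.85 and 7.96 in CD103+CD11b+ cells. A list of exocrine pancreas genes was therefore drawn up after the values had been seen. Of its 34 genes 27 were tested and 0 were called in the untreated comparison. Their mean level was 4.27 in CD103+CD11b- and 4.35 in CD103+CD11b+ cells of experiment 1, 7.76 and 9.14 in experiment 2, and 6.69 and 6.37 in experiment 3. Ctrb1, a chymotrypsinogen, gave 3.59, 10.84 and 10.002 in CD103+CD11b- cells and 3.80, 11.66 and 9.39 in CD103+CD11b+ cells. In the untreated arrays the level therefore went with the experiment more than with the subset. With DSS the means were 4.75 in CD103+CD11b- and 5.76 in CD103+CD11b+ cells of experiment 4. They were 4.001 and 4.19 in experiment 5, and 6.21 and 7.58 in experiment 6. The mean was thus higher in CD103+CD11b+ cells in each experiment except experiment 3, and this difference was not tested. Gp2 of the list gave -1.81 untreated (limma adjusted p = 0.12) and passed with DSS (-2.88, adjusted p = 0.0086). The part of the pancreas transcripts in the results was not tested. Of the 214 named genes that passed, besides the sort genes, 161, 163 and 163 still passed without experiment 1, 2 or 3, and 0 reversed. Each of these fits kept experiment 2 or 3, and the genes were chosen on the same arrays. These counts therefore cannot show the part of the pancreas transcripts.

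**Figure D1:**
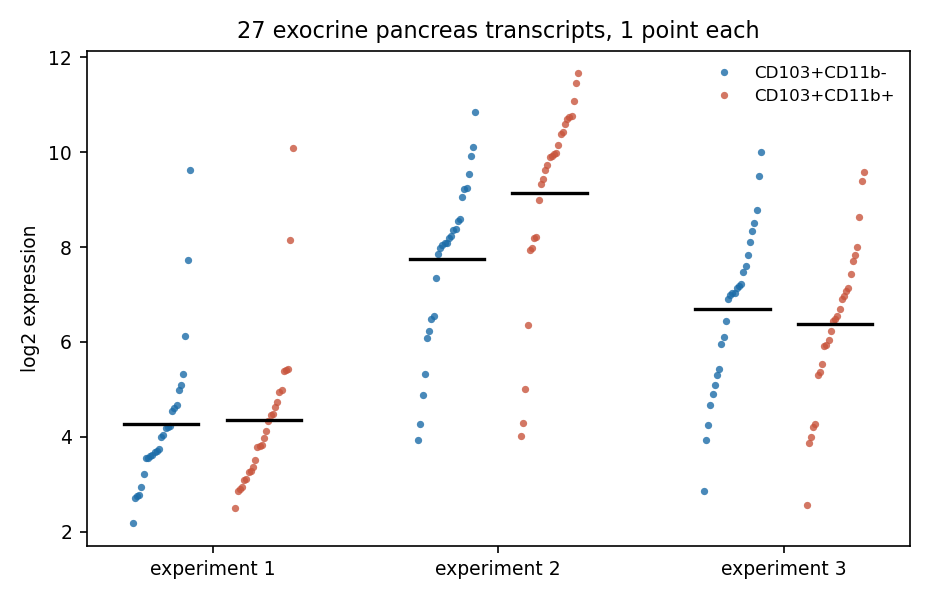
Log2 expression of the 27 exocrine pancreas transcripts tested (vertical axis) in each experiment (horizontal axis), 1 point a gene, with blue for CD103+CD11b- and red for CD103+CD11b+ cells; the black bar is the array's mean. The means lie at 4.27 and 4.35 in experiment 1 and reach 7.76 and 9.14 in experiment 2.

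Marker genes of other cells were read in the same way. Over all genes tested 2.76% passed as higher and 4.09% as lower in CD103+CD11b- cells. Of 23 macrophage markers tested, 8 were lower in CD103+CD11b- cells and 0 higher, and the array means of the list ran from 6.89 to 7.02 in CD103+CD11b- and from 7.34 to 7.61 in CD103+CD11b+ cells. The complement genes C1qa (-1.14 ± 0.18), C1qb (-1.14 ± 0.20) and C1qc (-1.17 ± 0.19), the growth factor receptor Csf1r (-1.19 ± 0.17) and the mannose receptor Mrc1 (-1.20 ± 0.20) were among the 8. Gpnmb and Apoe of the list were lower too, and the call of Gpnmb was lost under 6 of 15 other settings. Fcgr1, a defining macrophage marker given below with the Fc receptors, was also lower. Of other defining macrophage markers, Mertk had means of 3.97 and 4.39 (adjusted p = 0.22) and Adgre1 had 5.69 and 6.28 (adjusted p = 0.29). Cd163 lay under the filter level of 3.51 in both groups. The 11 plasmacytoid markers gave 3 lower genes, with array means of 5.17 to 5.22 against 5.64 to 5.71, and this count ran from 0 to 5 over the other settings. The 18 T, NK and innate lymphoid markers gave 1 higher and 2 lower genes, with array means of 5.47 to 5.56 against 5.73 to 5.83. Epithelium gave 1 lower gene of 23, the cadherin gene Cdh1 (-1.18 ± 0.17), which dendritic cells can also carry, with array means of 7.52 to 7.95 against 7.82 to 8.23 and Epcam at 7.63 and 7.86. All 23 epithelial markers had a difference below 0, from -1.18 to -0.093 with a median of -0.23, where 8469 of the 14003 genes tested lay below 0. Stroma and endothelium gave 2 lower of 19, with array means of 5.38 to 5.69 against 5.72 to 5.90. Monocytes gave 2 higher and 1 lower of 15, neutrophils 1 each way of 13, eosinophils and mast cells 1 lower of 10, and B and plasma cells 0 of 16. The array means of the macrophage, plasmacytoid, lymphoid and stromal lists did not overlap between the groups and were all lower in CD103+CD11b- cells. The list of dendritic cell transcription factors did the same, with 7.74 to 7.80 against 7.87 to 8.00. Of single genes tested, 13.9% were lower without overlap. No such share was computed for means over lists, so the lack of overlap gives no result particular to these lists. The largest lymphoid difference, -1.72, was that of Il7r, which is also listed with the cytokine receptors. The part of other cell types in the genes lower in CD103+CD11b- cells was not tested. In sorted bulk cells fewer cells of a type and less RNA per cell cannot be told apart.

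In the limma fit 960 genes passed an adjusted p of 0.05, or 6.86% of those tested. Higher in CD103+CD11b- cells were 387 genes (2.76%) and lower were 573 (4.09%). The groups did not overlap for 948 of the 960. Over all genes tested, 3079 (22%) had groups without overlap, with 1133 (8.09%) higher and 1946 (13.9%) lower. The direction was the same in all 3 experiments for 957 of the 960. Differences beyond 1 numbered 137 higher and 211 lower, those beyond 2 numbered 21 and 30, and those beyond 3 numbered 4 and 5. The median difference over all genes tested was -0.06 and the median standard error was 0.17. The smallest difference that passed was 0.37 in size. Arrays of a group correlated across genes at 0.979 to 0.982 for CD103+CD11b- and 0.971 to 0.978 for CD103+CD11b+ cells, and arrays of different groups at 0.956 to 0.969. Without experiment 1 the count was 595, without experiment 2 it was 613 and without experiment 3 it was 734.

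**Figure D2:**
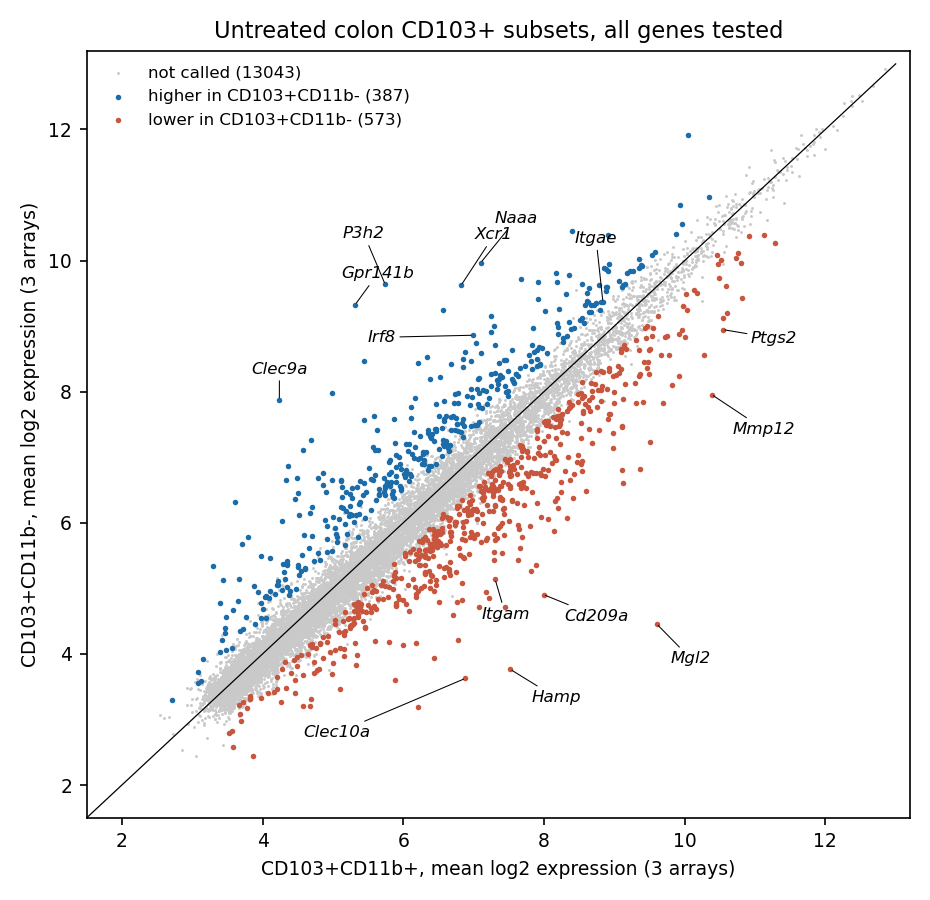
Mean log2 expression of each of the 14003 genes tested in CD103+CD11b+ cells (horizontal axis) and CD103+CD11b- cells (vertical axis), 3 arrays each; blue and red points passed the test and the line marks equality. The 387 blue points lie above the line and the 573 red points lie under it, with Mgl2 farthest from it.

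The largest differences towards CD103+CD11b- cells were led by a receptor without a known ligand. Gpr141b, an orphan G protein-coupled receptor, read 9.11, 9.36 and 9.51 in CD103+CD11b- cells and 5.08, 5.35 and 5.52 in CD103+CD11b+ cells, a difference of 4.01 ± 0.22, adjusted p = 2.1e-09. P3h2, a prolyl 3-hydroxylase that modifies collagen chains in the endoplasmic reticulum, read 9.80, 9.51 and 9.60 in CD103+CD11b- cells and 5.56, 5.89 and 5.78 in CD103+CD11b+ cells (3.89 ± 0.31, adjusted p = 9.1e-08). In each case the lowest CD103+CD11b- array lay more than 3 log2 units above the highest CD103+CD11b+ array. Clec9a, a lectin-like receptor that recognises exposed actin of dead cells, read 7.93, 7.65 and 8.05 in CD103+CD11b- cells and 4.35, 4.03 and 4.34 in CD103+CD11b+ cells (3.64 ± 0.26, adjusted p = 4.3e-08). Gpr33, a chemoattractant-like receptor that is a pseudogene in most people, read 8.60, 8.20 and 8.60 in CD103+CD11b- cells and 5.85, 5.46 and 5.01 in CD103+CD11b+ cells (3.03 ± 0.29, adjusted p = 8.8e-07). Tssc4 read 8.01, 7.76 and 8.17 in CD103+CD11b- cells and 5.35, 4.86 and 4.74 in CD103+CD11b+ cells (2.998 ± 0.24, adjusted p = 9.1e-08). None of the 3 overlapped between the subsets, although the CD103+CD11b+ arrays of Gpr33 were spread from 5.01 to 5.85.

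Naaa, the lysosomal acid amidase that breaks down N-acylethanolamines, read 9.98, 9.83 and 10.09 in CD103+CD11b- cells and 7.09, 6.97 and 7.24 in CD103+CD11b+ cells (2.87 ± 0.21, adjusted p = 5.3e-08). Xcr1, the receptor for the chemokine XCL1 made by CD8 T and NK cells, read 9.53, 9.76 and 9.58 in CD103+CD11b- cells and 7.31, 6.47 and 6.68 in CD103+CD11b+ cells (2.80 ± 0.21, adjusted p = 5.3e-08). Its CD103+CD11b+ array of experiment 1 was the highest of that group and still lay over 2 units under every CD103+CD11b- array. Ucp1, the uncoupling protein of brown fat mitochondria, read 9.48, 9.22 and 9.05 in CD103+CD11b- cells and 6.80, 6.26 and 6.65 in CD103+CD11b+ cells (2.68 ± 0.27, adjusted p = 1.4e-06). Itga1, the α1 chain of a collagen-binding integrin, read 7.15, 7.30 and 7.33 in CD103+CD11b- cells and 4.99, 4.17 and 4.91 in CD103+CD11b+ cells (2.57 ± 0.23, adjusted p = 4.4e-07). Both were separated by more than 2 units at their nearest arrays. Differences above 2 were also found for Mab21l3 (2.71 ± 0.19), the stefin protease inhibitor gene Stfa2 (2.53 ± 0.34), the germinal centre signalling gene Gcsam (2.50 ± 0.21), Arhgap42 (2.31 ± 0.24), the adhesion gene Cadm1 (2.23 ± 0.24), F630111L10Rik (2.20 ± 0.14), the late endosome GTPase gene Rab7b (2.19 ± 0.25), Clec12a (2.12 ± 0.22), the G protein regulator Rgs9 (2.06 ± 0.14), the thioesterase gene Ppt1 (2.05 ± 0.23), the langerin gene Cd207 (2.05 ± 0.30) and the phosphatase gene Ppef2 (2.05 ± 0.16). Ctla2b (1.99 ± 0.25), R74862 (1.97 ± 0.15), the RNA-binding protein gene Khdrbs3 (1.94 ± 0.24) and the BCL-2 family gene Bcl2l14 (1.91 ± 0.21) completed the 25 largest. The mean of Ppef2 in CD103+CD11b+ cells, 3.29, lay under the filter level, so its difference there is set by a value near the bottom of the scale.

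On the opposite side Mgl2 came first. Mgl2, which encodes the galactose-binding lectin CD301b, read 4.76, 4.36 and 4.25 in CD103+CD11b- cells and 9.29, 9.77 and 9.75 in CD103+CD11b+ cells, a difference of -5.15 ± 0.21, adjusted p = 1.8e-11. The highest array without CD11b lay more than 4 units under the lowest array with it. Clec10a, which encodes the related lectin CD301a, read 3.80, 3.11 and 3.97 in CD103+CD11b- cells and 6.46, 6.81 and 7.38 in CD103+CD11b+ cells (-3.26 ± 0.25, adjusted p = 6.9e-08). Hamp, the iron hormone hepcidin, which closes the iron exporter ferroportin, read 3.29, 4.62 and 3.38 in CD103+CD11b- cells and 7.75, 7.61 and 7.20 in CD103+CD11b+ cells (-3.76 ± 0.38, adjusted p = 1.4e-06). The CD103+CD11b- array of experiment 2 was more than 1 unit above the other 2, and the groups remained apart.

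Next in order towards CD103+CD11b+ cells came the following genes. Cd209a, a mouse relative of DC-SIGN, read 5.18, 4.67 and 4.87 in CD103+CD11b- cells and 8.04, 8.06 and 7.89 in CD103+CD11b+ cells (-3.09 ± 0.24, adjusted p = 9.1e-08), and Cd209c read 3.03, 3.28 and 3.27 in CD103+CD11b- cells and 6.04, 6.23 and 6.36 in CD103+CD11b+ cells (-3.02 ± 0.24, adjusted p = 1.1e-07). The CD103+CD11b- mean of Cd209c was 3.19, under the filter level. Il22ra2, which encodes the soluble IL-22 binding protein that blocks the epithelial repair cytokine IL-22, read 4.62, 4.40 and 5.14 in CD103+CD11b- cells and 7.55, 7.29 and 7.52 in CD103+CD11b+ cells (-2.73 ± 0.25, adjusted p = 4.5e-07). Trem1, an amplifier of myeloid activation, read 4.94, 5.71 and 5.17 in CD103+CD11b- cells and 7.81, 7.86 and 7.79 in CD103+CD11b+ cells (-2.55 ± 0.24, adjusted p = 6.4e-07). In each of these the groups were more than 2 units apart at their nearest arrays. Pilra read 3.74, 5.22 and 3.66 in CD103+CD11b- cells and 6.67, 6.67 and 6.99 in CD103+CD11b+ cells (-2.57 ± 0.32, adjusted p = 2.3e-05), and here the CD103+CD11b- array of experiment 2 stood about 1.5 units above the others, without reaching the CD103+CD11b+ arrays. Mfge8, a bridge between phosphatidylserine on dying cells and phagocytes, read 6.79, 6.73 and 6.31 in CD103+CD11b- cells and 9.15, 9.02 and 9.19 in CD103+CD11b+ cells (-2.51 ± 0.16, adjusted p = 1.6e-08). Mmp12, the macrophage elastase, read 7.59, 8.03 and 8.25 in CD103+CD11b- cells and 10.20, 10.48 and 10.47 in CD103+CD11b+ cells (-2.43 ± 0.18, adjusted p = 5.0e-08), with the third subset at 10.58.

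The remainder of the 25 largest on this side were the dectin-2 gene Clec4n (-2.55 ± 0.19), the chemokine receptor gene Ccr1 (-2.53 ± 0.27), the SLAM adaptor gene Sh2d1b1 (-2.51 ± 0.21), Ifitm6 (-2.37 ± 0.20), Pilrb1 (-2.35 ± 0.28), the IL-2 receptor α gene Il2ra (-2.30 ± 0.20), Pilrb2 (-2.29 ± 0.21), the inhibitory receptor gene Cd300a (-2.28 ± 0.15), the retinol-binding protein receptor gene Stra6l (-2.27 ± 0.23), Mcemp1 (-2.26 ± 0.25), the IL-18 receptor chain gene Il18rap (-2.23 ± 0.27), the inhibitory sialic acid receptor gene Siglecg (-2.20 ± 0.23), Itgam, Gm5150 (-2.12 ± 0.33) and Sirpa (-2.10 ± 0.14). All 50 genes kept their call and direction under each of 15 other choices of processing and of arrays used.

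**Figure D3:**
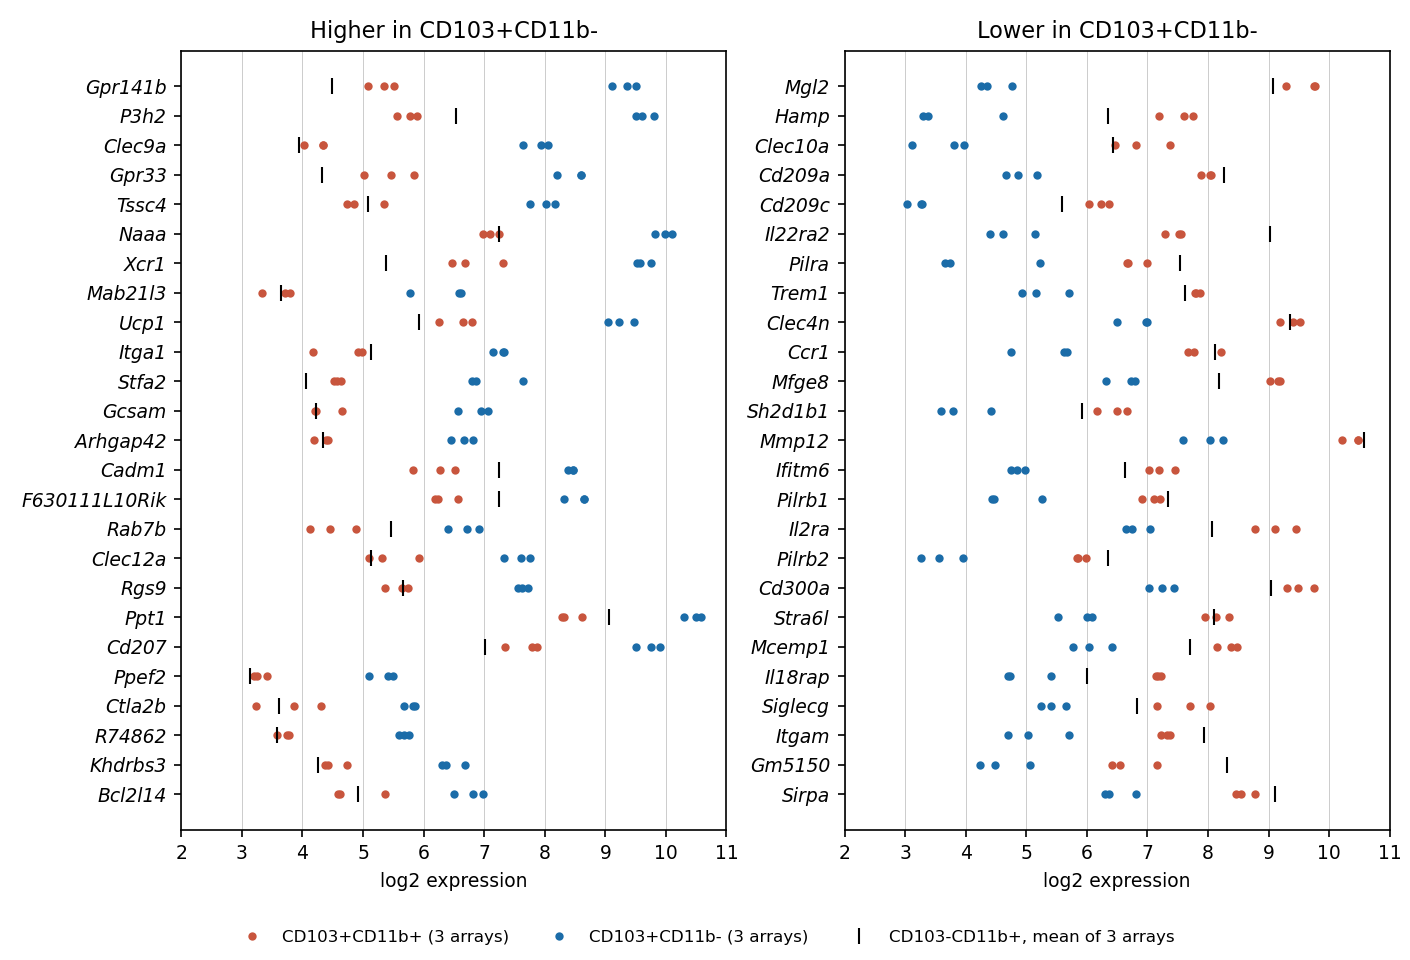
Log2 expression (horizontal axis) of the 25 genes with the largest difference each way in the 3 arrays of CD103+CD11b- cells (blue) and of CD103+CD11b+ cells (red), with the mean of the 3 CD103-CD11b+ arrays as a black tick. Blue and red points do not overlap for any of them, which the choice of genes required, while the tick lies nearer the red than the blue points for most of the genes in both panels.

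The promoters of the leading genes are shown because these genes separated the subsets most. They are the RefSeq windows on GRCm38.p6, from 250 bases before the annotated start to 50 after it, for the 3 largest differences each way that had an entry. Capitals mark matches, on either strand, to the letters TGANTCA (the AP-1 motif), GAAA, any 2 bases and GAAA (the core of the interferon response element bound by IRF proteins), GGAA, any 2 bases and GAAA (a core shared by PU.1 with IRF4 or IRF8) or CAGGTG (an E-box bound by E proteins and ZEB factors).
Gpr141b: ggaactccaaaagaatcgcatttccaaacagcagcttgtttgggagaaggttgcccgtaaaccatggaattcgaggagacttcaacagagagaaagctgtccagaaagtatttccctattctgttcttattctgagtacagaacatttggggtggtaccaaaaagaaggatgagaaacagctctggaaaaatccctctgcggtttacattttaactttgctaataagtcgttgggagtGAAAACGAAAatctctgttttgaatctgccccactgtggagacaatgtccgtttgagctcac
Clec9a: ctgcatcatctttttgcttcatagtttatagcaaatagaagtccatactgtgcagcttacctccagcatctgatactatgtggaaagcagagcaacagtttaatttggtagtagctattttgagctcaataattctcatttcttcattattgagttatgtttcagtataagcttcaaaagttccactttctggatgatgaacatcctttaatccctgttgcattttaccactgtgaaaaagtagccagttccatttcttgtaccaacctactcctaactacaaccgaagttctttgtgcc
Gpr33: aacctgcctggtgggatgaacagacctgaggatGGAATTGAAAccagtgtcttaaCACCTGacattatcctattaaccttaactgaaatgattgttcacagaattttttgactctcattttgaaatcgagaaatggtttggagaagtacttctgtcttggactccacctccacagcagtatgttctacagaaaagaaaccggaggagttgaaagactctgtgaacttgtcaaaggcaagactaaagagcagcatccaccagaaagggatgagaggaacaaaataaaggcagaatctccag
Mgl2: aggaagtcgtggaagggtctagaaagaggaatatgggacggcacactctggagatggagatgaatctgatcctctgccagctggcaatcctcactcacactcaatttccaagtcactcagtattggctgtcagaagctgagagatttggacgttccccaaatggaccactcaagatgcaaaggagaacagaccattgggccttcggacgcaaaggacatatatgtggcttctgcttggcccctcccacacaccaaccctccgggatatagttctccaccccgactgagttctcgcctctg
Hamp: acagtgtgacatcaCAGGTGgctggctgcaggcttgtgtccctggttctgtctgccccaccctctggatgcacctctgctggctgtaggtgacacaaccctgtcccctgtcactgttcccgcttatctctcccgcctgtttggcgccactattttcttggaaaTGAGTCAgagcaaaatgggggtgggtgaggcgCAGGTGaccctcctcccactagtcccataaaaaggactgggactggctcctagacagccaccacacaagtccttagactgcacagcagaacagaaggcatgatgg
Cd209a: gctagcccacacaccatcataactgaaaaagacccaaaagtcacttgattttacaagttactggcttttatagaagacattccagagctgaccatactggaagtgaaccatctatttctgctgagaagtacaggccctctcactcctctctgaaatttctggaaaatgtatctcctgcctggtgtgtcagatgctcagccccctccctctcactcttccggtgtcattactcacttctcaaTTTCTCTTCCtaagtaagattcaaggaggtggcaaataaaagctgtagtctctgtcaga
The windows are chr13:19732902-19733201 (minus strand) for Gpr141b, chr6:129408612-129408911 (plus) for Clec9a, chr12:52028014-52028313 (minus) for Gpr33, chr11:70130107-70130406 (plus) for Mgl2, chr7:30943980-30944279 (minus) for Hamp and chr8:3748935-3749234 (minus) for Cd209a.

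Gpr141b held 1 interferon response element core, Gpr33 held 1 PU.1-IRF core and 1 E-box, Cd209a held 1 PU.1-IRF core, and Hamp held 1 AP-1 motif and 2 E-boxes. Clec9a and Mgl2 held none of these letters in the window. Such matches also occur in promoters at large, the E-box most often. Of all 32851 promoters listed, 3.44% held the interferon core, 2.71% the PU.1-IRF core, 7.81% the AP-1 motif and 20.2% the E-box. Among the 13955 promoters of genes tested the shares were 3.02%, 2.39%, 5.78% and 19.3%. Among the 427 promoters of genes higher in CD103+CD11b- cells the shares were 4.45%, 2.58%, 8.90% and 20.6%, and among the 615 promoters of genes lower there they were 4.88%, 3.58%, 6.18% and 20.8%. Promoters were listed for 11082 of the 14003 genes tested.

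For all gene lists below, the shares over all genes tested were 2.76% higher and 4.09% lower. The cDC1 list held 21 tested genes, of which 14 were higher in CD103+CD11b- cells, 0 were lower and 7 did not pass, with a median difference of 1.03 beside -0.06 over all genes. Without experiment 1, 2 or 3 the higher count was 11, 13 or 12. The sort gene Itgae is a member, and without it 13 of 20 were higher. The transcription factor gene Irf8 read 8.99, 8.75 and 8.84 in CD103+CD11b- cells and 7.15, 7.13 and 6.70 in CD103+CD11b+ cells (1.87 ± 0.18, adjusted p = 1.1e-06). Besides the genes already given, Btla, an inhibitory receptor of lymphocytes and cDC1 (1.14 ± 0.16), the fatty acid and scavenger receptor gene Cd36 (1.03 ± 0.20) and the endosomal double-stranded RNA sensor gene Tlr3 (0.83 ± 0.17) were higher. Ly75, the DEC-205 uptake receptor (0.62 ± 0.16), was higher too, but its call was lost under 2 of 15 alternatives, with an adjusted p of up to 0.096. Batf3, the other defining factor of the lineage, had means of 6.65 and 6.90, a difference of -0.25 ± 0.17, adjusted p = 0.47. Id2 (0.07 ± 0.15, adjusted p = 0.85), the cross-presentation gene Wdfy4 (0.45 ± 0.14, adjusted p = 0.058) and Ifi205 (0.39 ± 0.29, adjusted p = 0.52) did not pass either. Wdfy4 was higher in each of the 3 experiments and passed under 1 or more alternatives.

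The cDC2 list held 20 tested genes, of which 11 were lower in CD103+CD11b- cells and 1 was higher, with a median difference of -1.01. The sort gene Itgam, whose difference the sort made, is a member, and without it 10 of 19 were lower. Sirpa, which binds the CD47 signal against uptake, read 6.30, 6.82 and 6.36 in CD103+CD11b- cells and 8.55, 8.78 and 8.46 in CD103+CD11b+ cells, a gap of more than 1.5 units between the nearest arrays. The transcription factor genes Irf4, with 6.73, 6.72 and 6.69 in CD103+CD11b- cells and 7.84, 7.52 and 7.97 in CD103+CD11b+ cells (-1.07 ± 0.16, adjusted p = 1.4e-04), and Zeb2, with 6.61, 6.06 and 6.02 in CD103+CD11b- cells and 7.33, 7.45 and 7.51 in CD103+CD11b+ cells (-1.20 ± 0.17, adjusted p = 7.3e-05), were lower without overlap. The member that went the other way was Clec12a, an inhibitory receptor for uric acid crystals and dead cells, with 7.60, 7.33 and 7.76 in CD103+CD11b- cells and 5.11, 5.31 and 5.93 in CD103+CD11b+ cells. Without array 2 of the CD103+CD11b- cells, and without experiment 2, the higher count was 2. Rbpj, which carries NOTCH signals into the nucleus, did not pass (0.28 ± 0.13, adjusted p = 0.27), and neither did Klf4 (-0.25 ± 0.18, adjusted p = 0.5) or Epcam (-0.23 ± 0.21, adjusted p = 0.63).

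Of 30 transcription factor genes of dendritic cells, 1 was higher (Irf8) and 7 were lower in CD103+CD11b- cells, with a median of -0.17. Besides Irf4 and Zeb2, the lower genes were the pan-dendritic repressor Zbtb46, with 6.26, 6.24 and 5.99 in CD103+CD11b- cells and 7.11, 6.86 and 6.77 in CD103+CD11b+ cells (-0.75 ± 0.15, adjusted p = 0.003), the plasmacytoid factor Tcf4 (-0.68 ± 0.14), Batf (-0.88 ± 0.21), Prdm1, which encodes BLIMP1 (-0.79 ± 0.22), and Stat3 (-0.37 ± 0.11). The calls of Batf and Prdm1 were lost under 2 and 6 of 15 alternatives (adjusted p up to 0.077 and 0.15), those of Prdm1 including leaving out any 1 of 5 arrays. Nfil3 (0.01), the aryl hydrocarbon receptor gene Ahr (-0.19) and Rel (-0.32) did not pass. Of 14 genes common to dendritic cells, the metalloprotease gene Adam19 (1.48 ± 0.15, adjusted p = 1.0e-06) and the junctional adhesion gene Jaml (1.09 ± 0.19, adjusted p = 6.2e-04) were higher, Zbtb46 was lower and 11 did not pass.

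C-type lectin receptors, which bind sugars or proteins on microbes and dying cells, went both ways. Of 29 tested, 5 were higher and 15 lower in CD103+CD11b- cells, with a median of -0.85. Cd207, langerin, read 9.90, 9.75 and 9.51 in CD103+CD11b- cells and 7.87, 7.79 and 7.34 in CD103+CD11b+ cells (2.05 ± 0.30, adjusted p = 1.3e-04). Clec1a was also higher (0.84 ± 0.23), a call lost under 5 of 15 alternatives (adjusted p up to 0.12). Clec4n, dectin-2, which senses fungal mannan, read 6.50, 6.99 and 6.98 in CD103+CD11b- cells and 9.18, 9.52 and 9.41 in CD103+CD11b+ cells (-2.55 ± 0.19, adjusted p = 5.0e-08). Clec4a1 read 4.88, 4.29 and 3.34 in CD103+CD11b- cells and 5.94, 6.16 and 6.43 in CD103+CD11b+ cells (-2.004 ± 0.29, adjusted p = 1.1e-04), with the CD103+CD11b- arrays spread over 1.5 units and all of them under the others. Clec4d, Clec4e, Clec4a2, Clec4a4, Clec5a, Cd209b and Cd209d were lower as well, from -1.80 for Clec4d to -1.01 for Clec4a2. The mannose receptor gene Mrc1 gave 7.03, 7.09 and 6.63 in CD103+CD11b- cells and 7.87, 8.24 and 8.24 in CD103+CD11b+ cells. Mrc1 is also a macrophage marker, and the third subset had it at 9.51.

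Inhibitory and activating myeloid receptors, most of which signal through ITIM or ITAM motifs, went largely the same way. Of 37 tested, 14 were lower and 1 higher, with a median of -0.48. The paired receptors Pilra, Pilrb1 and Pilrb2 were all lower, and so were Cd300a, Cd300lb (-1.37) and Cd300ld (-1.98), and the Siglecs Siglecg (5.25, 5.40 and 5.65 in CD103+CD11b- cells and 8.03, 7.16 and 7.71 in CD103+CD11b+ cells), Cd33 (-1.87) and Siglece (-1.14). The shared signalling adaptors Tyrobp (-0.75) and Fcer1g (-1.02) were lower too. Klrk1, the NKG2D gene, was the higher member (0.63 ± 0.14), and its call was lost under 1 of 15 alternatives (adjusted p = 0.051). Of 19 complement and Fc receptor genes 10 were lower and 1 higher (median -0.81), and without the sort genes Itgam and Itgax 9 of 17 were lower. Cfp, properdin, which stabilises the alternative complement pathway, read 6.81, 6.69 and 6.89 in CD103+CD11b- cells and 8.73, 8.51 and 8.39 in CD103+CD11b+ cells (-1.74 ± 0.21, adjusted p = 1.1e-05), and Cfb, factor B of that pathway, gave -1.23 ± 0.25, adjusted p = 0.0027. The Fc receptor genes Fcgr1 (-1.02), Fcgr3 (-0.81) and Fcgr2b (-0.78) were lower by about 1 unit or less, and Fcgr1 is also a macrophage marker. The macrophage marker list moved in the same direction as these families, as given above.

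**Figure D4:**
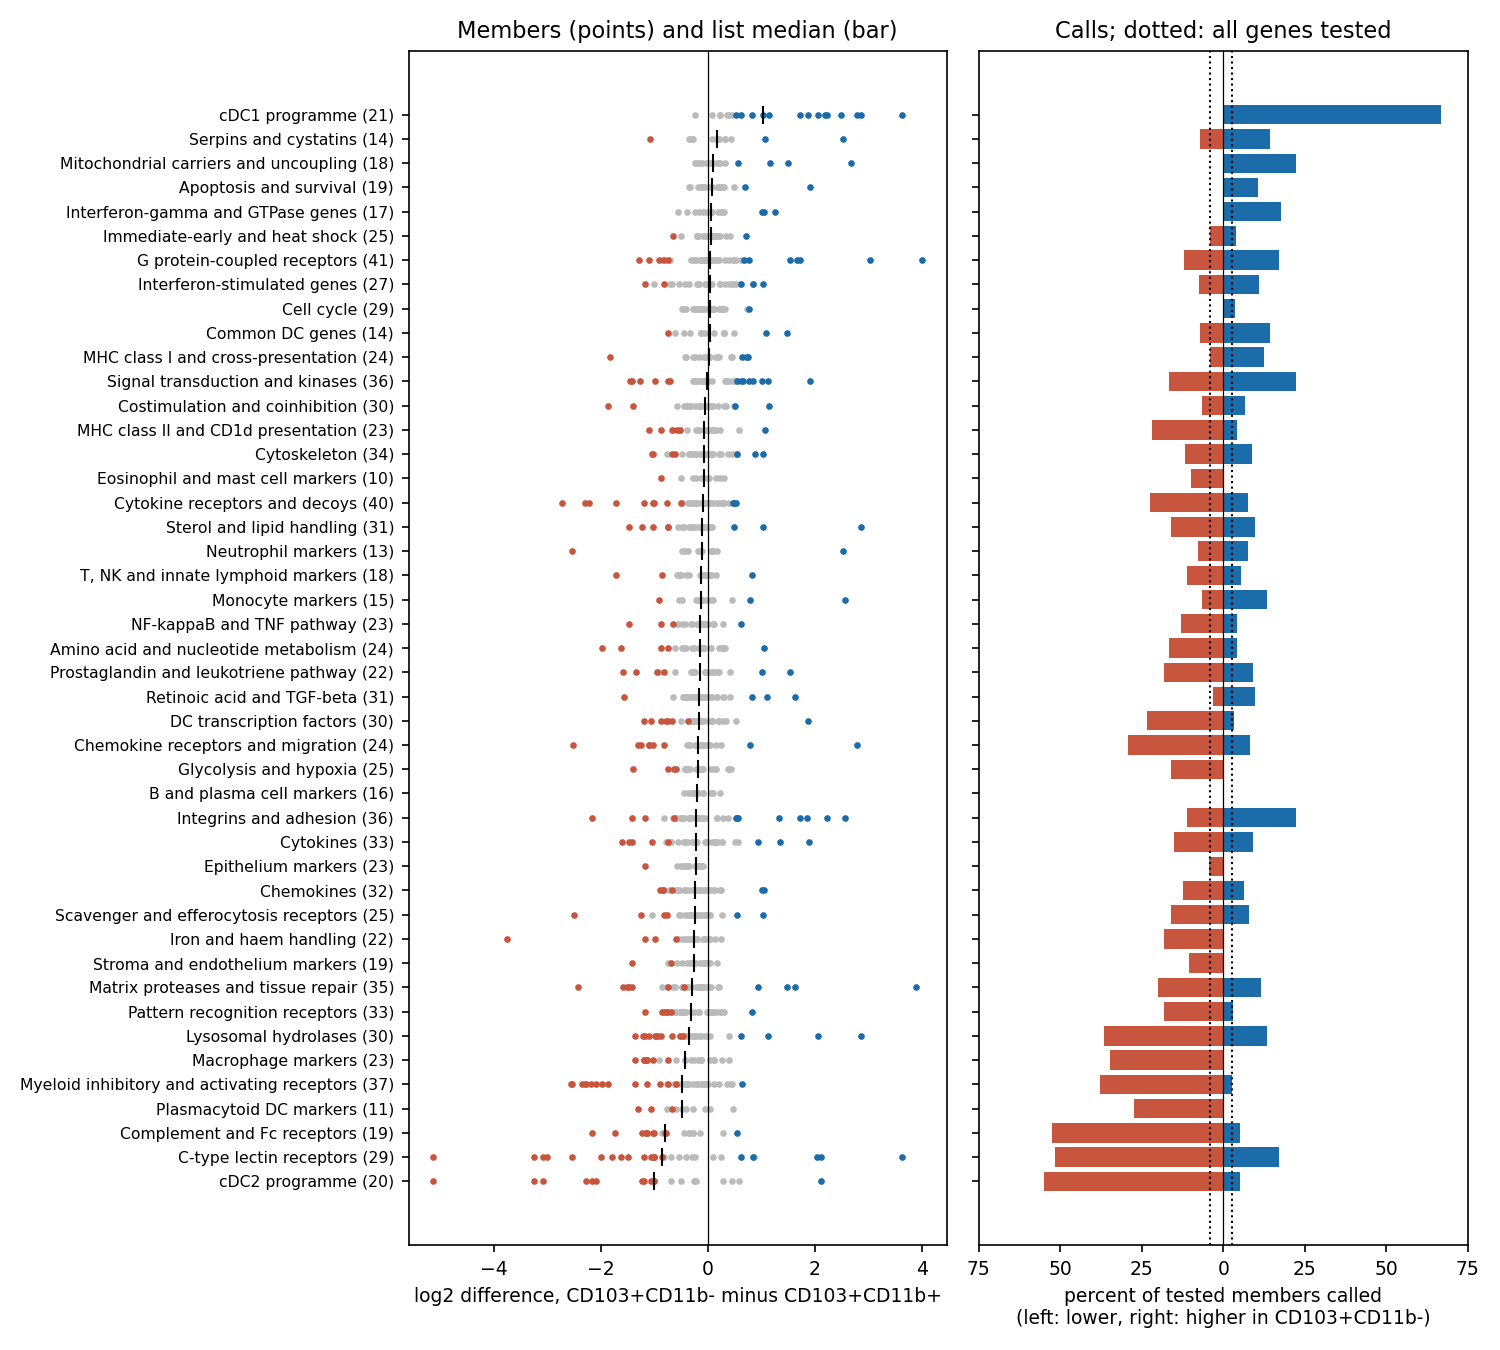
Left, the log2 difference of every tested member (points, blue higher, red lower, grey not passing) and the median (bar) of each gene list with at least 10 tested members, with the number tested in brackets; right, the percent of members that passed, higher to the right and lower to the left, with dotted lines at 2.76% and 4.09% for all genes. The cDC1 list has the highest median, 1.03, and the cDC2 list the lowest, -1.01.

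Sensors of microbes gave 6 lower and 1 higher of 33 (median -0.32). Tlr3 read 4.97, 5.55 and 4.91 in CD103+CD11b- cells and 4.09, 4.57 and 4.28 in CD103+CD11b+ cells, higher in CD103+CD11b- cells without overlap. Lower were Tlr2, the receptor for bacterial lipopeptides, with 5.88, 5.95 and 6.07 in CD103+CD11b- cells and 6.65, 6.85 and 6.69 in CD103+CD11b+ cells (-0.77 ± 0.16, adjusted p = 0.0036), and Ticam2, the TLR4 adaptor TRAM (-1.18 ± 0.22, adjusted p = 0.0014). Tlr1 and Tlr9 passed the main test (-0.87 ± 0.25 and -0.68 ± 0.19) but lost the call under 8 and 8 of 15 alternatives (adjusted p up to 0.17 and 0.18), and Tlr1 overlapped between the groups. In the NF-κB and TNF list 1 of 23 was higher, the A20-binding inhibitor gene Tnip1 (0.62 ± 0.14, adjusted p = 0.0058), and 3 were lower. Its relative Tnip3 went the other way, with 7.44, 8.12 and 7.91 in CD103+CD11b- cells and 9.30, 9.11 and 9.50 in CD103+CD11b+ cells (-1.48 ± 0.24, adjusted p = 3.6e-04).

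Most genes of antigen presentation had no call. The same held for all genes tested, of which 2.76% were higher and 4.09% lower. Of 24 class I and cross-presentation genes 3 were higher and 1 was lower (median 0.02). The peptide transporter gene Tap1 read 8.48, 8.82 and 8.73 in CD103+CD11b- cells and 8.14, 7.86 and 7.80 in CD103+CD11b+ cells (0.75 ± 0.17, adjusted p = 0.0084), and Rab43, a Golgi GTPase used in cross-presentation by mouse cDC1, read 7.54, 7.40 and 7.57 in CD103+CD11b- cells and 6.92, 6.51 and 6.87 in CD103+CD11b+ cells (0.73 ± 0.13, adjusted p = 6.3e-04). Tap2 was higher (0.64 ± 0.17), a call lost under 7 of 15 alternatives (adjusted p up to 0.1). The lower gene was Cybb, the catalytic subunit of the phagocyte NADPH oxidase, with 7.25, 7.20 and 6.96 in CD103+CD11b- cells and 9.12, 8.95 and 8.88 in CD103+CD11b+ cells (-1.84 ± 0.16, adjusted p = 2.9e-07). Of 23 class II and CD1d genes 1 was higher, the ubiquitin ligase gene Marchf1, which sends class II molecules for degradation (1.07 ± 0.16, adjusted p = 2.0e-04), and 5 were lower, all of them lysosomal enzymes. The class II chain genes H2-Aa (-0.06 ± 0.12), H2-Ab1 (0.005 ± 0.14) and H2-Eb1 (-0.07 ± 0.11) and the invariant chain gene Cd74 (-0.05 ± 0.12), did not pass.

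Lysosomal enzymes went both ways. Of 30 tested, 11 were lower in CD103+CD11b- cells and 4 were higher, with a median of -0.36. Among the lower members were the protease and peptidase genes Ctsc, which activates granule serine proteases, with 8.62, 8.33 and 8.74 in CD103+CD11b- cells and 9.69, 9.62 and 9.67 in CD103+CD11b+ cells (-1.10 ± 0.15, adjusted p = 6.6e-05), Ctsz (-0.98 ± 0.12, adjusted p = 1.5e-05), Ctsa (-1.22 ± 0.14, adjusted p = 7.6e-06), Tpp1 (-1.18 ± 0.17, adjusted p = 1.2e-04) and the asparaginyl protease gene Lgmn (-0.88 ± 0.15, adjusted p = 7.8e-04). The galactosidase gene Gla was lower too (-0.999 ± 0.17, adjusted p = 7.3e-04), and Acp5, an acid phosphatase of macrophages and osteoclasts, gave -1.36 ± 0.20, adjusted p = 1.1e-04. Ctss (-0.52 ± 0.13) and Ctsd (-0.68 ± 0.19) were lower, with calls lost under 7 and 5 of 15 alternatives (adjusted p up to 0.11 and 0.13). The higher members were Naaa, Ppt1 with 10.50, 10.30 and 10.58 in CD103+CD11b- cells and 8.28, 8.61 and 8.32 in CD103+CD11b+ cells (2.05 ± 0.23, adjusted p = 4.7e-06), the glucuronidase gene Gusb (1.13 ± 0.26, adjusted p = 0.0085) and the sphingolipid activator gene Psap (0.62 ± 0.13, adjusted p = 0.0031).

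Of 33 cytokine genes tested, 3 were higher and 5 lower (median -0.22). Il15, which sustains CD8 T and NK cells, read 6.88, 6.57 and 6.61 in CD103+CD11b- cells and 4.35, 5.32 and 4.69 in CD103+CD11b+ cells (1.90 ± 0.27, adjusted p = 7.8e-05). Il12b, the p40 chain of IL-12 and IL-23, read 7.85, 8.15 and 7.45 in CD103+CD11b- cells and 7.14, 6.15 and 6.12 in CD103+CD11b+ cells (1.35 ± 0.25, adjusted p = 0.0015). For both genes a single CD103+CD11b+ array stood above the other 2 of its group, experiment 2 for Il15 and experiment 1 for Il12b, and the groups did not overlap. Lower in CD103+CD11b- cells were the IL-1 receptor antagonist gene Il1rn, with 7.37, 7.28 and 7.45 in CD103+CD11b- cells and 8.84, 9.03 and 9.06 in CD103+CD11b+ cells (-1.61 ± 0.14, adjusted p = 2.6e-07), the activin chain gene Inhba (-1.48 ± 0.24, adjusted p = 3.0e-04), oncostatin M (-1.42 ± 0.23, adjusted p = 4.4e-04), the IL-27 and IL-35 chain gene Ebi3 (-1.04 ± 0.21, adjusted p = 0.0035) and Vegfa (-0.74 ± 0.12, adjusted p = 3.9e-04). The other chains of IL-12 and IL-23, Il12a (0.51 ± 0.18, adjusted p = 0.1) and Il23a (-0.38 ± 0.25, adjusted p = 0.46) did not pass.

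Receptors for cytokines were mostly lower where they differed, with 9 lower and 3 higher of 40 (median -0.09). Il2ra, CD25, read 6.64, 7.04 and 6.75 in CD103+CD11b- cells and 8.78, 9.45 and 9.10 in CD103+CD11b+ cells (-2.30 ± 0.20, adjusted p = 2.6e-07). Il7r, the IL-7 and TSLP receptor chain, read 8.25, 8.79 and 8.63 in CD103+CD11b- cells and 10.16, 10.39 and 10.27 in CD103+CD11b+ cells (-1.72 ± 0.18, adjusted p = 1.9e-06). Il18rap gave 4.73, 5.41 and 4.71 in CD103+CD11b- cells and 7.22, 7.14 and 7.18 in CD103+CD11b+ cells (-2.23 ± 0.27, adjusted p = 1.4e-05), and Tnfrsf1b, TNF receptor 2, gave -1.03 ± 0.13, adjusted p = 1.5e-05. TNF receptor 1 (Tnfrsf1a, 0.53 ± 0.15), Ifnar1 (0.48 ± 0.14) and the gp130 gene Il6st (0.48 ± 0.12) were the higher members, and each lost its call under 6 to 8 of 15 alternatives (adjusted p up to 0.21). Of 30 costimulatory and inhibitory ligands and receptors, Btla (6.94, 6.90 and 7.27 in CD103+CD11b- cells and 5.95, 5.87 and 5.87 in CD103+CD11b+ cells) and Icam1 (0.52 ± 0.13) were higher, and Tnfsf4, the OX40 ligand, with 4.14, 4.79 and 3.47 in CD103+CD11b- cells and 5.95, 6.24 and 5.80 in CD103+CD11b+ cells (-1.86 ± 0.27, adjusted p = 1.2e-04), and Slamf1 (-1.40 ± 0.15, adjusted p = 2.6e-06) were lower. Icam1 lost its call under 7 of 15 alternatives (adjusted p up to 0.12).

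Of 24 genes of chemokine receptors and migration 2 were higher and 7 lower (median -0.19). Against Xcr1, Ccr1, a receptor for CCL3 and CCL5, read 5.68, 5.62 and 4.75 in CD103+CD11b- cells and 7.66, 7.77 and 8.22 in CD103+CD11b+ cells (-2.53 ± 0.27, adjusted p = 2.8e-06). Ccr9, the receptor for the gut chemokine CCL25, read 5.39, 5.92 and 5.20 in CD103+CD11b- cells and 7.03, 6.88 and 6.52 in CD103+CD11b+ cells (-1.30 ± 0.26, adjusted p = 0.0023). Ccr6, the receptor for CCL20, gave -1.11 ± 0.18, adjusted p = 2.7e-04, the oxysterol receptor gene Gpr183 gave 8.41, 8.32 and 8.35 in CD103+CD11b- cells and 9.43, 9.48 and 9.50 in CD103+CD11b+ cells (-1.11 ± 0.12, adjusted p = 3.7e-06), and the decoy-like gene Ccrl2 gave -1.26 ± 0.14, adjusted p = 6.5e-06. Fscn1, the actin bundler of mature dendritic cells, gave -1.02 ± 0.19, adjusted p = 0.0017. Ccr2 was higher (0.79 ± 0.20), and its call was lost under 5 of 15 alternatives (adjusted p up to 0.11). Ccr7, the receptor for exit to the lymph node, had means of 10.75 and 11.08 and did not pass (-0.33 ± 0.12, adjusted p = 0.12). Among 32 chemokines the CXCR3 ligand genes Cxcl9, with 9.76, 9.98 and 10.09 in CD103+CD11b- cells and 8.79, 9.07 and 8.91 in CD103+CD11b+ cells (1.02 ± 0.19, adjusted p = 0.0016), and Cxcl11 (1.06 ± 0.19, adjusted p = 0.0012) were higher and 4 were lower, from -0.89 for Ccl9 to -0.67 for Ccl22. The calls of all 4 were lost under at least 1 alternative (adjusted p up to 0.12).

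Of 36 adhesion genes tested, 8 were higher and 4 lower (median -0.22). Without the sort genes Itgam, Itgae and Itgax 7 were higher and 3 lower of 33. The α chain genes Itga1, Itga3 (1.73 ± 0.15, adjusted p = 2.6e-07) and Itgal, the α chain of LFA-1 (1.34 ± 0.18, adjusted p = 6.0e-05), were higher. Cadm1 read 8.38, 8.46 and 8.47 in CD103+CD11b- cells and 6.27, 6.52 and 5.82 in CD103+CD11b+ cells (2.23 ± 0.24, adjusted p = 3.3e-06) and the tetraspanin gene Cd81 read 11.81, 11.88 and 12.05 in CD103+CD11b- cells and 9.95, 10.25 and 9.96 in CD103+CD11b+ cells (1.86 ± 0.19, adjusted p = 1.4e-06). The β chain genes Itgb1 (0.56 ± 0.14) and Itgb2 (0.55 ± 0.15) were higher by less, and lost their calls under 5 and 6 of 15 alternatives (adjusted p up to 0.084 and 0.1). For Itgb2 these were the removal of any 1 of the 6 arrays. Pecam1, which is also an endothelial marker, read 5.84, 5.62 and 5.77 in CD103+CD11b- cells and 7.24, 7.22 and 7.05 in CD103+CD11b+ cells (-1.43 ± 0.15, adjusted p = 3.4e-06), and Alcam gave -0.63 ± 0.14, adjusted p = 0.0055.

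Of 31 retinoic acid and TGF-β genes 3 were higher and 1 was lower (median -0.16). Tgfbi, a TGF-β-induced matrix protein, read 9.81, 9.74 and 9.87 in CD103+CD11b- cells and 8.12, 8.14 and 8.25 in CD103+CD11b+ cells (1.63 ± 0.15, adjusted p = 6.6e-07), and the retinol dehydrogenase gene Dhrs9 (1.11 ± 0.20, adjusted p = 8.9e-04) and the receptor gene Rara (0.82 ± 0.15, adjusted p = 9.7e-04) were higher. Dhrs3, which turns retinaldehyde back into retinol, read 5.69, 5.69 and 5.85 in CD103+CD11b- cells and 7.64, 7.32 and 6.96 in CD103+CD11b+ cells (-1.56 ± 0.15, adjusted p = 8.2e-07). The retinaldehyde dehydrogenase gene Aldh1a2, for which gut dendritic cells are known, had means of 4.50 and 4.94 and did not pass (-0.44 ± 0.24, adjusted p = 0.33), and the TGF-β activating integrin gene Itgb8 did not pass either (-0.65 ± 0.28, adjusted p = 0.2). In the prostaglandin and leukotriene list 2 of 22 were higher and 4 lower. Ptgs2, cyclooxygenase 2, read 8.84, 8.98 and 9.02 in CD103+CD11b- cells and 10.52, 10.72 and 10.40 in CD103+CD11b+ cells (-1.60 ± 0.14, adjusted p = 4.4e-07), while the prostaglandin E2 receptor gene Ptger2 read 5.68, 4.97 and 5.85 in CD103+CD11b- cells and 4.09, 3.88 and 3.94 in CD103+CD11b+ cells (1.53 ± 0.20, adjusted p = 3.9e-05). Lta4h, which makes leukotriene B4, gave -1.35 ± 0.16, adjusted p = 1.1e-05, and the thromboxane synthase gene Tbxas1 gave 1.01 ± 0.19, adjusted p = 0.0021.

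Matrix and repair genes counted 4 higher and 7 lower of 35 (median -0.29). Besides Mmp12, the metalloprotease gene Mmp19 read 9.003, 8.96 and 9.39 in CD103+CD11b- cells and 10.48, 10.74 and 10.41 in CD103+CD11b+ cells (-1.43 ± 0.17, adjusted p = 8.7e-06) and Adam23 gave -1.52 ± 0.22, adjusted p = 1.1e-04, all lower in CD103+CD11b- cells, while Adam19, with 9.56, 9.83 and 9.64 in CD103+CD11b- cells and 8.33, 8.11 and 8.14 in CD103+CD11b+ cells, and Adam8 (0.93 ± 0.18, adjusted p = 0.0018) were higher. Of 22 iron and haem genes 4 were lower and 0 higher: Hamp, the biliverdin reductase gene Blvrb (-0.999 ± 0.22, adjusted p = 0.0057), and the haem exporter gene Flvcr1 (-1.17 ± 0.29) and ferritin receptor gene Ncoa4 (-0.60 ± 0.14), whose calls were lost under 5 and 3 of 15 alternatives (adjusted p up to 0.13 and 0.061). Phagocytic and lipid receptors went both ways. Cd36 read 9.87, 9.86 and 9.94 in CD103+CD11b- cells and 8.52, 9.21 and 8.84 in CD103+CD11b+ cells, higher in CD103+CD11b- cells, and the scavenger receptor gene Msr1 gave -1.25 ± 0.25, adjusted p = 0.0026. The phospholipid transfer gene Pltp read 7.46, 7.10 and 7.07 in CD103+CD11b- cells and 8.92, 8.51 and 8.64 in CD103+CD11b+ cells (-1.48 ± 0.15, adjusted p = 2.1e-06), the isoprenoid synthesis gene Idi1 gave -1.23 ± 0.14, adjusted p = 9.2e-06, and the fatty acid binding gene Fabp5 gave -1.03 ± 0.15, adjusted p = 1.5e-04.

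Of 18 mitochondrial carrier genes 4 were higher and 0 lower. Beside Ucp1, the carnitine-acylcarnitine carrier gene Slc25a20 read 9.26, 9.57 and 9.42 in CD103+CD11b- cells and 7.93, 7.99 and 7.82 in CD103+CD11b+ cells (1.51 ± 0.19, adjusted p = 2.9e-05) and the glycine carrier gene Slc25a38 gave 1.16 ± 0.17, adjusted p = 1.2e-04. Kynu, kynureninase of the tryptophan pathway, read 6.13, 6.27 and 6.27 in CD103+CD11b- cells and 8.18, 8.11 and 8.29 in CD103+CD11b+ cells (-1.98 ± 0.17, adjusted p = 2.3e-07), and the mitochondrial arginase gene Arg2 gave -1.62 ± 0.33, adjusted p = 0.0031. The creatine synthesis gene Gatm was higher (1.06 ± 0.18, adjusted p = 5.0e-04). Of 25 glycolysis and hypoxia genes 4 were lower and 0 higher, led by the lactate exporter gene Slc16a3 with 6.18, 5.84 and 5.96 in CD103+CD11b- cells and 7.71, 7.18 and 7.31 in CD103+CD11b+ cells (-1.41 ± 0.19, adjusted p = 3.8e-05). That count ran from 2 to 6 over the other settings. The calls of Slc2a3 (-0.64 ± 0.17) and Tpi1 (-0.60 ± 0.18) were lost under 6 and 10 of 15 alternatives (adjusted p up to 0.12 and 0.18).

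G protein-coupled receptors and intracellular signalling showed differences in both directions. Of 41 receptors 7 were higher and 5 lower (median 0.04). Lpar6, a lysophosphatidic acid receptor gene, read 9.18, 8.81 and 9.03 in CD103+CD11b- cells and 7.14, 7.31 and 7.41 in CD103+CD11b+ cells (1.72 ± 0.21, adjusted p = 1.9e-05) and P2ry14, the UDP-glucose receptor gene, read 9.01, 8.67 and 9.05 in CD103+CD11b- cells and 7.11, 7.45 and 7.19 in CD103+CD11b+ cells (1.66 ± 0.14, adjusted p = 2.6e-07). The fatty acid receptor genes were opposed, with Ffar4, for long chains, at 3.92, 3.97 and 3.85 in CD103+CD11b- cells and 3.21, 2.88 and 3.37 in CD103+CD11b+ cells (0.76 ± 0.15, adjusted p = 0.0022) and Ffar2, for the short chains made by gut bacteria, at 3.59, 3.84 and 3.64 in CD103+CD11b- cells and 4.82, 4.80 and 5.33 in CD103+CD11b+ cells (-1.30 ± 0.18, adjusted p = 8.4e-05). Both receptors had low values, and the CD103+CD11b+ mean of Ffar4 lay under the filter level. Of 36 signalling genes 8 were higher and 6 lower. The kinase gene Lrrk2 read 9.24, 9.03 and 9.20 in CD103+CD11b- cells and 7.13, 7.35 and 7.28 in CD103+CD11b+ cells (1.91 ± 0.13, adjusted p = 2.6e-08), the phosphatase gene Inpp5d, which encodes SHIP1, gave 1.13 ± 0.15, adjusted p = 3.0e-05, and the phosphatase gene Dusp2 gave 1.01 ± 0.18, adjusted p = 9.6e-04. Socs2, a feedback inhibitor of cytokine signals, read 6.19, 6.49 and 6.13 in CD103+CD11b- cells and 7.63, 8.13 and 7.39 in CD103+CD11b+ cells (-1.45 ± 0.20, adjusted p = 5.6e-05), and Pik3r6, Fgr and Prkcb gave -1.42, -1.28 and -0.99.

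Interferon genes gave 3 higher and 2 lower of 27 in the general list, and 3 higher and 0 lower of 17 in the interferon-γ list, with medians of 0.04 and 0.07. Mx1, an antiviral GTPase gene, read 5.04, 5.57 and 5.45 in CD103+CD11b- cells and 4.49, 4.52 and 4.51 in CD103+CD11b+ cells (0.85 ± 0.14, adjusted p = 3.9e-04), Gbp5 read 6.21, 6.29 and 6.65 in CD103+CD11b- cells and 5.29, 4.84 and 5.24 in CD103+CD11b+ cells (1.26 ± 0.21, adjusted p = 5.1e-04) and Trim30a gave 1.04 ± 0.19, adjusted p = 0.0012. Rtp4 was lower (-1.17 ± 0.28), a call lost under 2 of 15 alternatives (adjusted p up to 0.065). Of 29 cell cycle genes 1 was higher, the cyclin gene Ccnd3 (0.76 ± 0.18, adjusted p = 0.0091), and 0 were lower. Immediate-early and heat shock genes, which can rise during digestion of tissue, gave 1 higher, Nr4a2 (0.72 ± 0.12, adjusted p = 3.9e-04), and 1 lower, Nr4a3 (-0.65 ± 0.12, adjusted p = 0.0013), of 25. The cell cycle and immediate-early counts lay near the shares over all genes tested, 2.76% higher and 4.09% lower. They give no result particular to either list.

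The same subset comparison was made in the arrays of DSS-treated mice, from other experiments with no array shared. There 834 genes passed (5.96%), with 499 higher (3.56%) and 335 lower (2.39%) where CD11b was absent. Of the 387 genes higher in untreated CD103+CD11b- cells 385 had a positive difference in the DSS arrays and 296 passed there, and of the 573 lower genes 545 had a negative difference and 262 passed. The 558 shared calls made up 58.1% of the untreated and 66.9% of the DSS calls, and 0 genes passed in opposite directions. Both comparisons used the same estimate of each gene's spread, so passing in both is not independent. For the higher genes the median difference was 0.84 untreated and 0.81 with DSS, and for the lower genes it was -0.83 and -0.55. The DSS arrays counted 16 higher and 0 lower genes in the cDC1 list (median 1.14). In the cDC2 list they counted 10 lower and 3 higher (median -0.63). The sort genes Itgae and Itgam were not taken out of these lists here.

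Gene by gene, Gpr141b differed by 3.44 with DSS, Ucp1 by 2.85, Clec9a by 2.93 and Xcr1 by 2.43. On the lower side Mgl2 differed by -3.41, Hamp by -2.96, Sirpa by -1.04 and Itgam, the sort gene, by -1.24. Of the 23 macrophage markers 2 passed as lower with DSS, C1qa (-0.69, adjusted p = 0.02) and Csf1r (-0.66, adjusted p = 0.023), and 1 as higher, Dnase1l3 (0.89, adjusted p = 0.025). Mrc1 (-0.32, adjusted p = 0.53) and C1qb (-0.29, adjusted p = 0.6) did not pass there. Whether a subset difference itself depended on DSS was tested as an interaction in limma. It passed for 0 genes, with a lowest adjusted p of 0.098. An unadjusted p under 0.05 was found for 676 of the 14003 genes tested, about the share that no interaction would give. With trended and robust variance estimates 2 genes passed, Crisp3 (interaction -1.86, adjusted p = 0.036) and Mgl2 (1.73, adjusted p = 0.036). Without array 3 of the untreated CD103+CD11b+ cells 1 gene passed, Crisp3 (-2.07, adjusted p = 0.022). The 3 genes of lowest p were Crisp3, at 0.06 untreated and -1.80 with DSS, Mgl2, and Pdia5, a protein disulfide isomerase gene, at 0.22 and 1.30.

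**Figure D5:**
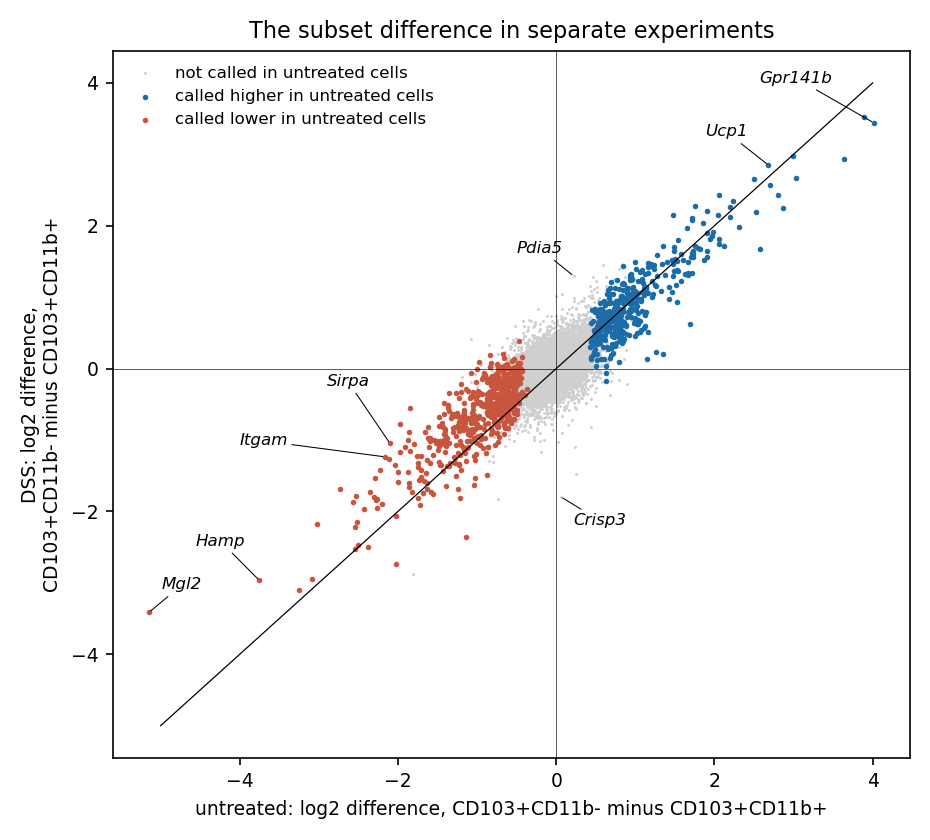
Log2 difference between CD103+CD11b- and CD103+CD11b+ cells in untreated arrays (horizontal axis) and in DSS arrays (vertical axis) for every gene tested, with genes that passed in untreated cells in blue (higher) and red (lower) and a line at equality. Of the blue points 385 of 387 lie above 0 on the vertical axis and of the red points 545 of 573 lie below it.

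Levels in the third subset, CD103-CD11b+ cells of the same experiments, are given for orientation only, because a comparison with it would use the same arrays again. Mgl2 had means of 4.46 in CD103+CD11b-, 9.60 in CD103+CD11b+ and 9.08 in CD103-CD11b+ cells, and Sirpa had 6.49, 8.60 and 9.11. Il22ra2 had its highest mean in the third subset, with 4.72, 7.45 and 9.02, and so had Gm5150 (4.59, 6.71 and 8.32) and C1qc (8.13, 9.29 and 10.60). Il2ra, Slamf1 and Tnfsf4 were highest in CD103+CD11b+ cells, with third-subset means of 8.07, 5.87 and 4.63 against 9.11, 6.86 and 5.996. Of the genes higher in CD103+CD11b- cells, Gpr141b, Clec9a and Xcr1 had their lowest mean in the third subset, with 4.49, 3.94 and 5.38, whereas Tgfbi (9.80, 8.17 and 10.12) and Psap (10.97, 10.35 and 11.05) were at least as high there.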

How the data were processed

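RNA of sorted colon lamina propria cells was measured on 18 mouse gene arrays. The deposited log2 values come from the RMA method, per the submitters' processing notes. That method corrects background, quantile-normalises the arrays together and summarises the probes of a probe set, so it removes differences in total RNA between samples. Tool versions, detection calls and the genome build were not given in the sources used here. Expression ran from 1.07 to 13.16, with array medians from 3.99 to 4.09.

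Of 34760 probe sets 21640 carried 1 gene symbol, 1321 several and 11799 none, and only the first kind was used. Symbols were updated by gene identifier for 21553 probe sets. A gene was kept when its probe set exceeded 3.51, the 40th percentile of the data, on at least 3 of 18 arrays, and the probe set of highest mean stood for the gene. This left 14003 of 19937 genes. limma 3.58.1 in R 4.3.3 fitted a mean for each of 6 groups over all 18 arrays, which share 1 estimate of the spread, with Benjamini-Hochberg adjustment over all genes and a threshold of 0.05. The fitting code was tested on simulated data.

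Experiment numbers link the subsets: the same-numbered CD103+CD11b- and CD103+CD11b+ arrays had residual correlations of 0.25, 0.29 and 0.10, and others had -0.34 to 0.10. With the experiment as a block, over the 9 untreated arrays, 789 genes passed. The alternatives were 15 settings and, added after seeing the data, leaving out each whole experiment.

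The 46 gene lists, which held 1121 genes with 968 tested, 49 under the filter and 104 without a usable probe set, and the genes compared were chosen with earlier results of these data known. Genes named were the sort genes, the 25 largest differences each way with separated groups, up to 6 called members each way of a list, up to 3 uncalled defining members and the 3 lowest interaction p-values. Other genes named, such as Batf3, Ccr7, Cd74, Aldh1a2, Fcgr1 and Tyrobp, were chosen with their values known, as was the pancreas list. Promoter sequences, gene names and gene order came from RefSeq tables of GRCm38.p6.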

Additional observations from a re-analysis of the deposited data

How the results depend on the processing

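The 960 calls became 595 without experiment 1 and 613 without experiment 2, with 249 and 234 genes higher and 346 and 379 lower. Leaving out 1 of the 6 arrays gave 715 to 1011 calls, with 290 to 382 higher and 408 to 629 lower. Other settings gave 746 (the 6 arrays alone), 713 (9 untreated arrays), 789 (replicate block, of which 730 were among the 960), 939 (no filter), 1025 (stricter filter) and 1020 (trended and robust variances). Quantile normalisation again gave 459 higher and 516 lower genes and median centring 393 and 535, against 387 and 573, with the median difference at -0.03 and -0.05 in place of -0.06. Itgae kept its direction, 0.53, but lost its call with the 6 arrays alone (adjusted p = 0.066), the 9 untreated arrays (0.054), the replicate block (0.072) and without experiment 1 (0.55, adjusted p = 0.096) or 3 (0.40, adjusted p = 0.19). Over single arrays left out it ran from 0.45 to 0.58. The cDC2 list went from 1 to 2 higher members without experiment 2 and from 1 to 2 over single arrays left out. The cDC1 higher count was 12 to 14 over those arrays. The interaction gave 0 genes, 2 with trended and robust variances, and 0 to 1 over single arrays left out. The cause was not tested. The DSS count of 834 was 950 with the block and 596 to 676 with 1 DSS array left out. Of 225 named genes besides the sort genes 168 stayed in direction and on the same side of the threshold under all other choices that tested them (15, or 14 for Ffar4), 56 lost a call under at least 1, 1 (Wdfy4) gained one and 0 reversed. Of 88 other list counts 45 moved by over 1.5 times somewhere, the largest of them a count of 8. Among counts of 5 or more these were the higher C-type lectins (5, range 3 to 6), adhesion genes (8, 5 to 8) and signalling genes (8, 4 to 8), and the lower transcription factors (7, 3 to 7), G protein-coupled receptors (5, 3 to 6), class II genes (5, 3 to 5), pattern recognition receptors (6, 2 to 8) and sterol and lipid genes (5, 3 to 5). With 3 arrays a side and no detection calls, a low value cannot be told from absence.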

Other observations

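Genes that differed between the subsets were in places neighbours in the genome. Of the called genes 935 were placed in the RefSeq gene order of GRCm38.p6, and 124 runs held at least 2 of them no more than 2 places apart. Of 32 runs with at least 3 genes 22 went in 1 direction. How many runs genes without a call would give was not computed, so these counts show no excess of neighbours. The longest run in 1 direction was on chromosome 6, where the lectin receptor genes Clec4a1, Clec4a4, Clec4a2, Clec4n, Clec4d and Clec4e were all lower in CD103+CD11b- cells. On chromosome 8 Cd209a, Cd209d, Cd209b and Cd209c were lower, and on chromosome 4 C1qb, C1qc and C1qa. Pilra, Pilrb1 and Pilrb2 on chromosome 5, and Ms4a4a, Ms4a4c and Ms4a6c on chromosome 19, were lower as well. On chromosome 11 the signal transducer genes Stat5b, Stat5a and Stat3 were lower together. Among the runs that were higher were Ppef2, Naaa, Sdad1 and Cxcl9 on chromosome 5, Med12l, Gpr171 and P2ry14 on chromosome 3, and Cnot10, Cmtm6 and Cmtm7 on chromosome 9. Members of a family can share probes, so their differences are not independent. The chemokine receptor genes Xcr1 (2.80) and Ccr1 (-2.53), which lie near each other, went in opposite directions. These runs were picked after their values had been seen, and no test of clustering was made.

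Of the named genes 8 had a further probe set on the array, and all 8 gave the same direction. The pairs differed in size, with Lrrk2 at 1.91 and 1.37, Arhgap42 at 2.31 and 1.64, Socs2 at -1.45 and -0.77 and Fabp5 at -1.03 and -0.56 for the probe set used and the further one. For Ncoa4 (-0.60 and -1.06) and Wdfy4 (0.45 and 0.69) the further probe set gave the larger difference.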
